A study of Homo sapiens with 6 samples.

Results

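The clustered histone genes are the genes that make the core histones H2A, H2B, H3 and H4 and the linker histone H1, and they lie in groups that the older nomenclature calls HIST1 (chromosome 6), HIST2 and HIST3 (chromosome 1) and HIST4 (chromosome 12). They were selected in the count tables by symbol, as every gene whose name begins with HIST1H, HIST2H, HIST3H or HIST4H, and were kept when at least 10 reads were counted in 3 or more libraries. Of 23228 genes in the tables, 72 had such a symbol, and 19 of the 72 were kept. These were 2 of 6 H1 genes, 5 of 17 H2A genes, 10 of 20 H2B genes, 0 of 14 H3 genes and 2 of 15 H4 genes.

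The libraries came from HEC-1-A, a human endometrial adenocarcinoma cell line, so that all values describe 1 line. Both groups were grown in McCoy's 5A medium with 10% fetal bovine serum. The 3 control libraries came from cells that received vehicle, and the 3 SMIP34 libraries came from cells that received 20 µM SMIP34, a small molecule that binds the coregulator PELP1 and promotes its degradation, for 24 h. The labels number the replicates without saying whether they were separate cultures, and p-values therefore measure only the spread between these samples. Between 19562711 and 22014835 reads were counted on genes in a library. The 7 epithelial markers that were looked up (EPCAM, CDH1, KRT8, KRT18, KRT19, PAX8 and MUC1) summed to between 3060 and 3320 CPM, that is counts scaled to a common library total, in every library, while the 3 leukocyte markers stayed at or below 0.501 CPM and the 3 endothelial markers at or below 0.721 CPM. The 5 stromal markers summed to between 3.63 and 5.18 CPM. A gene is said here to pass when its Benjamini-Hochberg adjusted p in edgeR was below 0.05. Of the epithelial markers 4 passed as lower with SMIP34 (17.2% of all genes tested did). Of the 2 stromal markers that were tested COL1A1 passed as higher (log2 fold change 0.50), as did 17.4% of all genes tested. The other, PDGFRB, did not pass (log2 fold change -0.54, adjusted p = 0.307 in edgeR). Their part in the histone values was not tested.

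Most clustered histone genes are replication-dependent. They are transcribed in S phase, when new chromatin is assembled, under the coactivator NPAT, and their mRNAs have no introns and end in a short stem-loop in place of a poly(A) tail. The stem-loop is bound by SLBP, which is needed for processing, translation and turnover of the message. Some of these genes also give longer, polyadenylated mRNAs, which are better known from differentiated or slowly dividing cells. The kit that the series names selects polyadenylated mRNA, so the values describe the part of histone mRNA that this selection and the counting over annotated exons captured. A change in the amount of a histone mRNA and a change in its polyadenylated share cannot be told apart in these libraries, and neither can fewer cells in S phase and less histone mRNA per cell.

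The stem-loop was looked for as a sequence near each gene, which does not show the 3′ end of the mRNA that was counted. The sequence of GRCh37, the genome that hg19 names, was searched on the sense strand in the first 1000 bases from each annotated start. All 19 kept genes held the stem-loop motif in this genomic window. So did 66 of the 66 matching histone genes that could be placed on 1 strand of 1 chromosome, against 0.326% of 22677 genes of all kinds (74 genes). The window could take in introns or a neighbouring gene. The site found for HIST1H3D lay outside its annotated exons and was that of HIST1H2AD. Representative sites are printed with the 16-base stem-loop in capitals and 5 flanking bases on either side, in the sense of the transcript.
HIST1H1E (chr6:26157323-26157338): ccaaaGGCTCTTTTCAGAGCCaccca
HIST3H2A (chr1:228645070-228645085): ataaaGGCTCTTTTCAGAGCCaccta
HIST1H2BK (chr6:27114145-27114160): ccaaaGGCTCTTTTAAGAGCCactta
HIST1H2BD (chr6:26158815-26158830): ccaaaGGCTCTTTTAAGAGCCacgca
HIST1H4C (chr6:26104545-26104560): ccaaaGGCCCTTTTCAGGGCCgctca
HIST1H4E (chr6:26205229-26205244): tcaaaGGCCCTTTTCAGGGCCgccca

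HIST1H2BK and HIST3H2A lie on the minus strand and the other 4 on the plus strand. The form in HIST1H1E and HIST3H2A was the commonest, in 37 of the 66 genes, and occurred in every class except H4. The site that HIST1H3D shares with HIST1H2AD is counted for both genes. The form shown for HIST1H4C and HIST1H4E occurred in 10 genes, and all 10 were H4 genes.

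The kept genes differed in how far their annotated exons ran past this site. In 13 of the 19 the annotation stopped within 20 bases of the stem-loop. Among the other 6, a poly(A) signal (AATAAA, sense strand) stood in the last 50 annotated bases of 4 genes, HIST1H2BK, HIST1H2BD, HIST2H2BE and HIST2H2BF, all of class H2B. Over 22677 genes of all kinds this hexamer was present in the same window in 56% of genes, and over the kept genes in 21.1%. In HIST1H2BK the stem-loop itself lay in the annotated intron, and the second exon lay further downstream. HIST1H2BD was annotated with 2 exons, the first holding the stem-loop, and its annotation ran 12746 bases past it. The 4 genes with the signal held 46.6% of all histone reads, and the 15 kept genes without it held 48.6%.

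The promoters of these genes are compact, and H2A and H2B genes often lie head to head and share one. Of 19 kept genes, 18 had a CCAAT box (CCAAT, both strands) in the 250 bases before the annotated start, against 32.7% of 22677 genes. The TATA element TATAAA was found in 11 of the 19 (9.58% of all genes) and the octamer ATTTGCAT, a known element of H2B promoters bound by OCT-1, in 9 of the 19 (1.49% of all genes). Head-to-head pairs were counted on overlapping windows. The intergenic sequences of 2 such pairs, in which both genes were kept, are printed in the orientation of the plus strand with the CCAAT box, the TATA element and the octamer, on either strand, in capitals.
HIST1H2BC and HIST1H2AC (chr6:26124133-26124372): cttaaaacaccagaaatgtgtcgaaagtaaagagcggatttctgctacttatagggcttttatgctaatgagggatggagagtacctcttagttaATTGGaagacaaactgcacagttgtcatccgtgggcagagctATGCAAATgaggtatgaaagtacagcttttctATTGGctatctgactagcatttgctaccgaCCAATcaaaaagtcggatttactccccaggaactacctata
HIST2H2BE and HIST2H2AC (chr1:149858233-149858524): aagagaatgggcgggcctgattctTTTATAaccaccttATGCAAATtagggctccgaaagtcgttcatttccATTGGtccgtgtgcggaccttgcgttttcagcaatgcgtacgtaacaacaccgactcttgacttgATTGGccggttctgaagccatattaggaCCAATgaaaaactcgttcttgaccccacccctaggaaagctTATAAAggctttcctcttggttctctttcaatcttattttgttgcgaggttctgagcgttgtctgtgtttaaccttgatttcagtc

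Both printed regions held 3 CCAAT boxes and 1 octamer, and a whole TATAAA lay only in the second. The 250 bases before HIST1H2BC held 1 TATAAA, which straddled the end of the first printed region. The 250 bases before HIST1H1E, the kept gene with the largest increase, are printed with the TATA element, the CCAAT box and the H1 box (AAACACA, both strands) in capitals.
HIST1H1E (chr6:26156309-26156558): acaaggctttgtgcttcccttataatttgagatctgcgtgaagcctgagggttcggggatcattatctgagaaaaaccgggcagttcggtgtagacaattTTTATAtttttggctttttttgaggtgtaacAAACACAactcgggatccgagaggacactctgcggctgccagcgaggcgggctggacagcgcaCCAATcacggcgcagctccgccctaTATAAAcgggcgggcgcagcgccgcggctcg

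The H1 box was present before 3 of the 19 kept genes, HIST1H1C, HIST1H1E and HIST2H2AC, and before 4.45% of all genes. These matches describe letters in the windows searched and say nothing on binding.

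The summed level of clustered histone mRNA overlapped between the groups. The 72 genes together were at 102, 113 and 106 CPM in control replicates 1, 2 and 3 and at 104, 98.0 and 97.6 CPM in SMIP34 replicates 1, 2 and 3. HIST1H2BK alone held 38.9% of the histone reads and HIST1H1C 18.8%. At the other end, 19 of the 72 genes had no read in any library, and the 53 genes that were not kept summed to between 81.5 and 157 reads per library. For comparison per kilobase of exon, the 72 genes summed to 160 ± 8.78 RPKM (CPM divided by exon length in kilobases; SD, n = 3) in control and 150 ± 8.33 in SMIP34-treated cells. H2AFZ, a replication-independent H2A variant with a polyadenylated mRNA, was at 821 ± 27.3 RPKM in control cells by itself. The named kit selects such mRNA, so these values do not compare total histone mRNA.

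Among the 19 kept genes, all of which entered the test, 5 passed, 3 as higher and 2 as lower with SMIP34. Over all 13408 genes tested the corresponding shares were 34.6% in either direction, 17.4% higher and 17.2% lower. With the fold limit that the study used (absolute log2 fold change over 0.5), HIST1H1E, HIST1H4E and HIST1H2BD passed as higher, against 1.44% of all genes, and 0 passed as lower, against 1.87% (3.31% in either direction). At an unadjusted p under 0.05, edgeR and limma voom each gave 3 higher and 3 lower genes and DESeq2 3 higher and 2 lower, and none of the lower ones was past the fold limit with any of these tools. HIST1H4E reached 10 reads in no control library and HIST1H1E in 1, so that both were kept only through the group in which they were high. The median log2 fold change of the 19 genes was -0.05, against -0.0022 for all genes tested, and CPM of the groups did not overlap for 6 of the 19, against 44.5% of all genes. In the shortest 10% of all genes tested, with up to 1206 bases of exon, which includes 17 of the 19, the median log2 fold change was -0.10. In the longest 10%, with 6891 bases or more, it was 0.12.

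**Figure D1:**
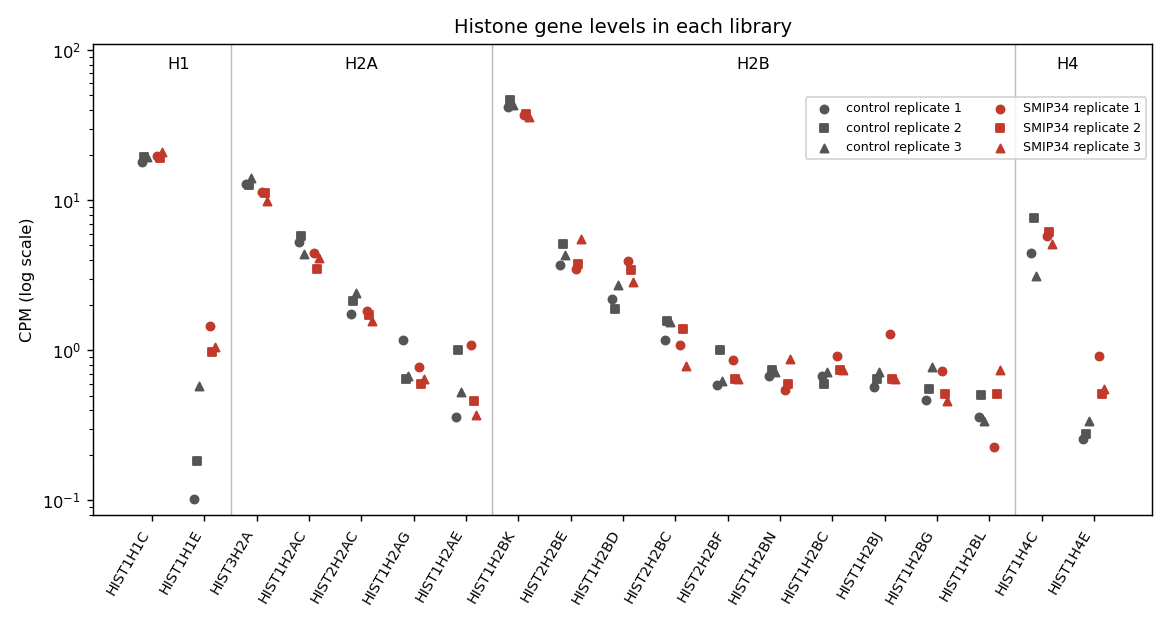
CPM on a log scale (vertical axis) for each of the 19 kept histone genes (horizontal axis), by class and then by control mean, with 1 point for each library. HIST1H2BK, HIST1H1C and HIST3H2A stand above 9 CPM in every library, and the points of 13 genes overlap between control and SMIP34.

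The H1 genes encode linker histones, which bind where DNA enters and leaves the nucleosome. HIST1H1C (now H1-2; chr6:26055968-26056699) was the second most abundant kept gene per kilobase, at 18.0, 19.5 and 19.3 CPM in control replicates 1, 2 and 3 and at 19.6, 19 and 21.1 CPM in SMIP34 replicates 1, 2 and 3. The groups overlapped. Its log2 fold change was 0.07 (95% interval -0.07 to 0.22, adjusted p = 0.451 in edgeR). This interval lies inside the fold limit.

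HIST1H1E (now H1-4; chr6:26156559-26157343) had 2, 4 and 12 reads in control replicates 1, 2 and 3 and 32, 21 and 23 reads in SMIP34 replicates 1, 2 and 3. Each treated library was above each control, and control replicate 3 held most of the control reads. In CPM the gene went from 0.288 ± 0.254 to 1.16 ± 0.259 (SD, n = 3 each), and the log2 fold change was 1.98 (standard error 0.42, 95% interval 1.11 to 2.85, adjusted p = 0.000629 in edgeR). Without SMIP34 replicate 1 the value was 1.79 (adjusted p = 0.00663), and without control replicate 3 it was 2.95. DESeq2 gave a log2 fold change of 2.01 and no adjusted p. The other 4 H1 genes had at most 1 read in a library.

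H2A genes encode the core histone that pairs with H2B, and the median log2 fold change of the 5 that were kept was -0.28. Of these, 1 passed as lower, against 17.2% of all genes. HIST3H2A (chr1:228645065-228645560, minus strand) had the highest level per kilobase of the 5 (24.2 RPKM over all libraries). It was at 12.9, 12.6 and 14 CPM in control replicates 1, 2 and 3 and at 11.3, 11.2 and 9.94 CPM in SMIP34 replicates 1, 2 and 3. Every treated library was below every control. The log2 fold change was -0.28 (standard error 0.089, 95% interval -0.46 to -0.09, adjusted p = 0.0166 in edgeR), a decrease of 17.5% in level. The call was lost with DESeq2 (adjusted p = 0.0543), without control replicate 3 (0.0725), without SMIP34 replicate 3 (0.0940) and with offsets for gene length (log2 fold change -0.15, adjusted p = 0.219).

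HIST1H2AC (chr6:26124373-26124918) had the H2A difference of the largest size, with 5.25, 5.79 and 4.38 CPM in control replicates 1, 2 and 3 and 4.47, 3.51 and 4.11 CPM in SMIP34 replicates 1, 2 and 3. SMIP34 replicate 1 lay above control replicate 3. The log2 fold change was -0.35 (95% interval -0.66 to -0.05) and did not pass (adjusted p = 0.0672 in edgeR). Without control replicate 3 it passed, at -0.46 (adjusted p = 0.0242). HIST2H2AC had a log2 fold change of -0.30 (adjusted p = 0.301) and HIST1H2AG of -0.28 (adjusted p = 0.573), both with overlapping groups. HIST1H2AE was at 7, 22 and 11 reads in control and 24, 10 and 8 reads in SMIP34 replicates 1, 2 and 3, and its interval ran from -0.89 to 0.88 on the log2 scale. Its value of -0.0035 had no stable sign, at 0.52 without control replicate 2 and -0.63 without SMIP34 replicate 1.

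**Figure D2:**
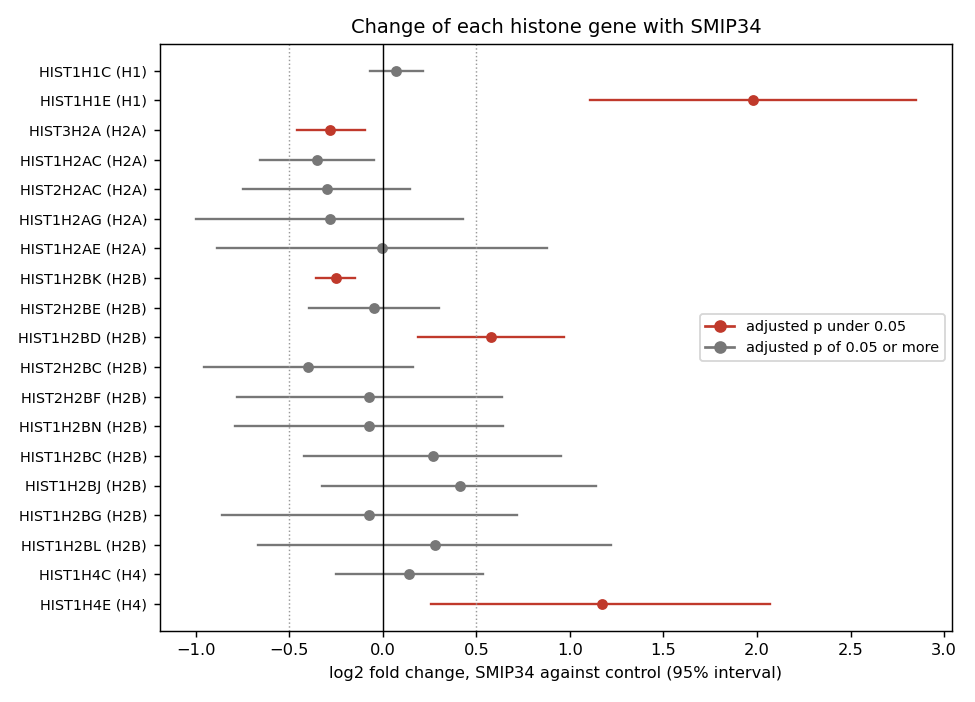
Log2 fold change of SMIP34 against control (horizontal axis) with its 95% interval for each of the 19 kept histone genes (vertical axis, class in brackets), with dotted lines at the fold limit of 0.5 in either direction. The 5 genes in red passed an adjusted p-value of 0.05 in edgeR, HIST1H1E, HIST1H2BD and HIST1H4E to the right and HIST3H2A and HIST1H2BK to the left, and of the intervals of the other 14 genes 12 reach past the fold limit.

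H2B genes made up the largest class, with 10 kept genes and a median log2 fold change of -0.06. HIST1H2BK (now H2BC12; 2 exons between 27106072 and 27114637 of chromosome 6, minus strand) was the most abundant of the clustered histone genes. This held both in CPM and per kilobase (48.1 RPKM over all libraries). It was at 41.8, 46.4 and 43.2 CPM in control replicates 1, 2 and 3 and at 37.0, 37.8 and 35.8 CPM in SMIP34 replicates 1, 2 and 3. No treated library reached the lowest control. The log2 fold change was -0.25 (standard error 0.051, 95% interval -0.36 to -0.15, adjusted p = 0.000364 in edgeR), a decrease of 16% in level that did not reach the fold limit. It passed under all 17 other settings that were tried, with values from -0.28 to -0.15.

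HIST1H2BD (now H2BC5; 2 exons between 26158349 and 26171576 of chromosome 6, plus strand) went the other way, with 2.21, 1.89 and 2.74 CPM in control replicates 1, 2 and 3 and 3.92, 3.42 and 2.87 CPM in SMIP34 replicates 1, 2 and 3. The groups did not overlap, although control replicate 3 and SMIP34 replicate 3 lay close together. The log2 fold change was 0.58 (standard error 0.19, 95% interval 0.19 to 0.97, adjusted p = 0.0189 in edgeR). It was 0.47 without SMIP34 replicate 1 (adjusted p = 0.108), 0.45 without control replicate 2 (0.110) and 0.56 without control replicate 1 (0.0536), and DESeq2 gave an adjusted p of 0.0558.

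Of the other H2B genes with an annotated poly(A) signal, HIST2H2BE (chr1:149856010-149858232, minus strand) was at 3.71, 5.10 and 4.33 CPM in control and 3.51, 3.79 and 5.50 CPM in SMIP34 replicates 1, 2 and 3, with the highest value in a treated library. Its log2 fold change of -0.05 had a 95% interval from -0.39 to 0.30 (adjusted p = 0.859 in edgeR) and, with the interval of HIST1H1C, was 1 of the 2 intervals of uncalled genes that stayed inside the fold limit. HIST2H2BF had between 11.5 and 22 reads per library and is annotated at more than 1 place of chromosome 1, where an exon overlaps FCGR1A on the opposite strand, so its count is uncertain. The 4 genes with the annotated signal had a median log2 fold change of -0.06. Of these, 1 passed as higher (17.4% of all genes did) and 1 as lower (17.2%).

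The remaining 6 H2B genes had between 5 and 34 reads in a library and adjusted p-values from 0.276 to 0.906. HIST2H2BC, which RefSeq lists as a transcribed pseudogene, had the lowest value of them, a log2 fold change of -0.40 (95% interval -0.96 to 0.16), and HIST1H2BJ the highest, 0.41 (95% interval -0.33 to 1.14). The value of HIST1H2BJ rested on SMIP34 replicate 1, with 28 reads against 14 in each other treated library, and was 0.0035 without it. HIST1H2BC had 13, 13 and 15 reads in control and 20, 16 and 16 reads in SMIP34 replicates 1, 2 and 3, without overlap in CPM, and did not pass (adjusted p = 0.583 in edgeR).

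In 4 head-to-head pairs both genes were kept. HIST1H2BC was at 0.27 and its partner HIST1H2AC at -0.35 on the log2 scale. HIST1H2BJ was at 0.41 and its partner HIST1H2AG at -0.28. HIST2H2BE and HIST2H2AC were at -0.05 and -0.30, and HIST1H2BG and HIST1H2AE at -0.07 and -0.0035. None of these 8 genes passed the test (34.6% of all genes did, in either direction), and the differences within pairs were not tested.

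H3 and H4 form the tetramer at the centre of the nucleosome. No H3 gene was kept. The 14 H3 genes summed to 28, 20 and 18 reads in control replicates 1, 2 and 3 and to 43, 20 and 21 reads in SMIP34 replicates 1, 2 and 3, and 18 of the 43 reads in SMIP34 replicate 1 came from HIST1H3B, which had between 0 and 4 reads elsewhere. The sums overlapped between the groups, and no test was made on them.

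HIST1H4C (now H4C3; chr6:26104176-26104565) was the most abundant H4 gene, at 13.8 RPKM over all libraries. It varied between controls, at 4.48, 7.63 and 3.13 CPM in replicates 1, 2 and 3, and the treated libraries, at 5.79, 6.10 and 5.08 CPM, lay inside that range. The log2 fold change was 0.14 (95% interval -0.25 to 0.53, adjusted p = 0.612 in edgeR). Its value was decided by single controls, at 0.58 without control replicate 2 (adjusted p = 0.0134) and -0.12 without control replicate 3 (adjusted p = 0.631).

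HIST1H4E (now H4C5; chr6:26204873-26205249) had 5, 6 and 7 reads in control replicates 1, 2 and 3 and 20, 11 and 12 reads in SMIP34 replicates 1, 2 and 3. Every treated library was above every control. The log2 fold change was 1.17 (standard error 0.44, 95% interval 0.26 to 2.07, adjusted p = 0.0419 in edgeR), the least secure of the 5 calls. DESeq2 gave this gene no adjusted p. The call was lost in 6 of the 16 other settings that gave one: with no filter on low counts (adjusted p = 0.0623), without SMIP34 replicate 1 (log2 fold change 0.86, adjusted p = 0.236), without SMIP34 replicate 3 (0.0507), and without control replicate 1 (0.107), 2 (0.107) or 3 (0.0597).

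The threshold of 10 reads in 3 libraries cut through a set of genes with similar counts. HIST1H2BL and HIST1H4E reached 10 reads in exactly 3 libraries. HIST1H2AM, with 13, 8 and 3 reads in control and 20, 6 and 8 reads in SMIP34 replicates 1, 2 and 3, reached it in 2 and was left out. SMIP34 replicate 1 was high among such genes. It held the highest CPM of the 6 libraries for 5 of the 11 kept genes with fewer than 50 reads in each library, and the 53 genes that were not kept summed to 7.15 CPM in it, against 3.77 to 5.51 CPM in the other libraries. Without this library 1 gene (HIST1H1E) passed as higher and 2 (HIST1H2BK and HIST3H2A) as lower.

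On chromosome 6 the 55 HIST1 genes spread over 2135 kb, from 25726291 to 27861669. The 3 genes that passed as higher, all on the plus strand, lay within 48.7 kb of each other (chr6:26156559-26205249), a pattern noticed after their values were seen. Of the 3, HIST1H1E and HIST1H4E were kept only through the SMIP34 libraries, in which they were high. DESeq2 gave an adjusted p only for HIST1H2BD (0.0558). HIST1H1E and HIST1H2BD were neighbours, 1005 bases apart. The other 5 histone genes of that stretch had at most 9 reads in any library and summed to 16, 9 and 8 reads in control and 11, 9 and 9 reads in SMIP34 replicates 1, 2 and 3. Genes other than histone genes are also annotated in the HIST1 interval, 30 in all, of which 17 were tested. Of these, 2 passed as higher and 2 as lower (17.4% and 17.2% of all genes), and their median log2 fold change was 0.0087. The lower ones were the solute carriers SLC17A1 (log2 fold change -1.20, adjusted p = 0.000885) and SLC17A3 (-0.51, adjusted p = 0.0142). SLC17A1 was at 1.91, 1.93 and 1.68 CPM in control and 0.638, 0.971 and 0.786 CPM in SMIP34 replicates 1, 2 and 3.

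**Figure D3:**
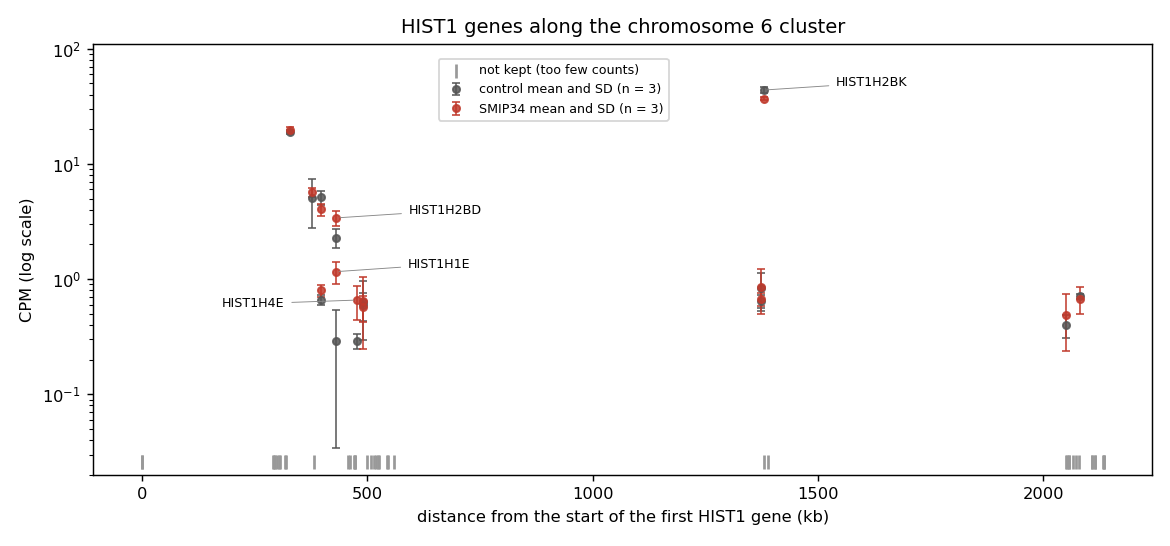
Mean CPM on a log scale (vertical axis, with SD, n = 3) of the kept HIST1 genes in control and SMIP34-treated cells against distance in kb from the start of the first HIST1 gene (horizontal axis), with grey ticks for the 41 HIST1 genes that were not kept. The 4 labelled genes passed an adjusted p-value of 0.05, and HIST1H1E, HIST1H2BD and HIST1H4E lie between 430 and 479 kb.

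The machinery that makes and degrades histone mRNA was measured on a list of 29 genes, all tested and below called processing genes. With SMIP34, 12 passed as higher (17.4% of all genes did) and 0 as lower in edgeR. The decay factors UPF1, ZCCHC6 and ZCCHC11 were among the 12. ERI1 was not (log2 fold change 0.06, adjusted p = 0.404 in edgeR). Neither were ZNF473 (-0.04, adjusted p = 0.627), LSM10 (0.03, adjusted p = 0.78) and LSM11 (0.12, adjusted p = 0.36). The median log2 fold change of the 29 genes was 0.10. At an unadjusted p under 0.05, 2 were lower with edgeR and with limma voom and 1 with DESeq2, and 2 were lower at the adjusted p-value when libraries were scaled by the upper quartile or by gene length offsets. None passed the fold limit. SLBP, the stem-loop binding protein, was at 110, 111 and 111 CPM in control replicates 1, 2 and 3 and at 124, 121 and 127 CPM in SMIP34 replicates 1, 2 and 3, without overlap, and its log2 fold change was 0.17 (adjusted p = 0.000303). NPAT, the coactivator of histone transcription, had a log2 fold change of 0.25 (30.4, 29.7 and 30.7 CPM in control, 36.8, 33.7 and 37.2 CPM in SMIP34, adjusted p = 0.000966). CASP8AP2, the gene of FLASH, which works in 3′ end processing, had a log2 fold change of 0.20 (adjusted p = 0.0020). The largest increase was that of POU2F1, the gene of OCT-1, at 0.35 on the log2 scale (adjusted p = 7.38e-05 in edgeR). It went from 24.9 ± 2.23 CPM in control to 31.8 ± 0.242 CPM in SMIP34-treated cells (SD, n = 3). Under 17 other settings POU2F1 lay between 0.21 and 0.42 and CASP8AP2 between 0.13 and 0.23, and both passed in each.

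Histone genes outside the clusters mostly give polyadenylated mRNA, many of them beyond S phase as well. They are called replication-independent here, although H2AFX, which is on the list and passed as lower (-0.09, adjusted p = 0.0342 in edgeR), also gives a stem-loop mRNA. Of 20 such genes on the list, 19 were in the tables and 10 were tested, of which 3 passed as higher (17.4% of all genes did) and 3 as lower (17.2%), 0 of them past the fold limit, and the median log2 fold change was -0.0088. The linker histone genes H1FX (0.27, adjusted p = 1.88e-08) and H1F0 (0.23, adjusted p = 8.94e-08) had the largest increases on the log2 scale. H1F0 was at 627 ± 4.77 RPKM in control and 734 ± 19 RPKM in SMIP34-treated cells (SD, n = 3 each). This was above the sum of all 72 clustered genes in these libraries, whose named kit selects polyadenylated mRNA. H3F3A had the largest decrease, from 311 ± 8.48 to 274 ± 4.50 CPM (log2 fold change -0.18, adjusted p = 1.53e-05).

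Histone chaperones carry histones to DNA. Of 24 listed genes, 8 passed as higher and 1 as lower, against 17.4% and 17.2% of all genes, and the median log2 fold change was -0.0068. UBN2, a subunit of the HIRA chaperone complex, was the only one past the fold limit, at 11.5, 9.66 and 10.6 CPM in control and 17.0, 13.9 and 16.2 CPM in SMIP34 replicates 1, 2 and 3, or 0.57 on the log2 scale (adjusted p = 2.47e-05 in edgeR). With gene length offsets it was 0.43, inside the limit. Among 46 S-phase genes, 12 passed as higher and 4 as lower, where the shares over all genes were 17.4% and 17.2%, with 0 past the fold limit (1.44% and 1.87% of all genes), and the median log2 fold change was 0.04. CLSPN, an adaptor of the replication checkpoint, had the largest increase (0.33, adjusted p = 2.22e-06) and LIG1, the DNA ligase of lagging-strand synthesis, the largest decrease (-0.17, adjusted p = 0.000199).

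**Figure D4:**
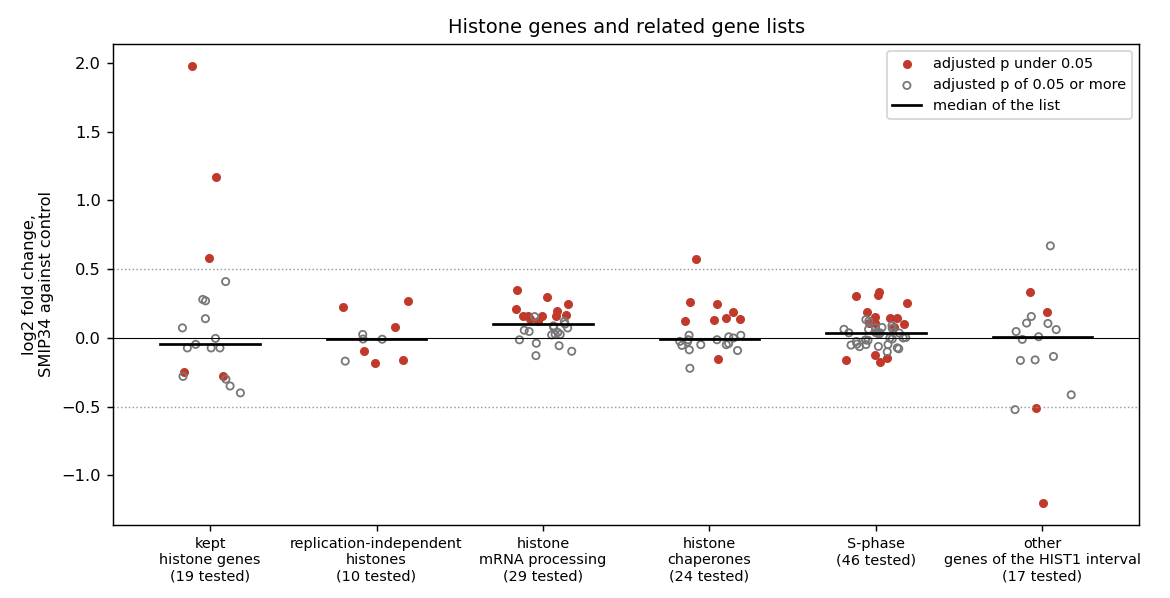
Log2 fold change of SMIP34 against control (vertical axis) for the kept histone genes and 5 related gene lists (horizontal axis, spread sideways within a list for legibility), with a bar at each list's median and dotted lines at the fold limit of 0.5. Filled points passed an adjusted p-value of 0.05 in edgeR, and the list medians lie between -0.05 and 0.10.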

How the data were processed

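Libraries were grouped by the treatment label, 3 control and 3 SMIP34, and none was left out. The authors deposited estimated counts per gene, not normalized. Per the file headers, featureCounts v1.5.0-p1 summed reads by strand over exons of the UCSC hg19 genes, with a minimum mapping quality of 2, and divided reads of several places or genes into fractions. Reads that match several histone copies equally can be lost or split this way, and 8 of the 72 histone genes had a fractional count. Poly(A) mRNA kits are named, TruSeq by the series and NEB by the labels. The submitters' processing notes name HISAT2, and the methods of the paper name tophat2 and HTSeq.

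Counts were rounded, filtered with filterByExpr, scaled by TMM and tested in edgeR 4.0.16 (R 4.3.3) by quasi-likelihood F tests, with Benjamini-Hochberg adjustment over 13408 genes. CPM use the TMM-scaled library totals, and RPKM divide CPM by annotated exon length. Standard errors come from the F statistic. The biological coefficient of variation was 3.03%. The procedure was run on simulated data as a check of the code, which does not bear on the calls made here. The members, lists and tests were chosen with earlier results of these data known. Genes named are members past both thresholds, the most abundant and most changed member of each class, the extremes of each list, and SLBP, NPAT and CASP8AP2. HIST1H2BC, HIST1H2BJ, HIST1H2AG, HIST1H2AE, HIST1H2BG, HIST2H2BE, HIST2H2AC, HIST2H2BC, HIST2H2BF, HIST1H2BL, HIST1H2AM, HIST1H3B, H1F0 and H2AFZ were named after their values were seen. So were HIST1H2AD, HIST1H3D, H2AFX, UPF1, ZCCHC6, ZCCHC11, ERI1, ZNF473, LSM10 and LSM11. Alternatives used DESeq2 1.42.0, limma 3.58.1, other scalings, filters, rounding and thresholds, length offsets, the replicate number as a block, and each library left out. Sequences were read from GRCh37.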

Additional observations from a re-analysis of the deposited data

How the results depend on the processing

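At these depths 12 of the 14 uncalled histone genes had intervals reaching past the fold limit, with standard errors from 0.07 to 0.46, so differences of that size may have been missed. The count of kept histone genes that were higher went from 3 to 0 with DESeq2, both with and without the fold limit, and that of lower genes from 2 to 1. DESeq2 gave no adjusted p for 8 of the 19, HIST1H1E and HIST1H4E among them, and 3 were higher at an unadjusted p. At an adjusted p under 0.01 the count past the fold limit was 1 higher, and without a fold limit 2 were lower. With gene length offsets 1 gene was lower, the class medians were -0.16 for H2A, 0.051 for H2B and 0.051 for genes with 1 exon of up to 700 bases, and 2 processing genes and 3 chaperone genes were lower. HIST1H1C then passed as higher (0.18, adjusted p = 0.0424). Upper quartile scaling gave 2 lower processing genes and 7 lower S-phase genes. Other genes of the HIST1 interval that were higher numbered 1 in place of 2 with DESeq2, length offsets, no filter, upper quartile scaling or the block.

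With each library left out in turn, 1 to 3 histone genes were higher, with the fold limit also 1 to 3, and 1 to 2 were lower. The median of the 19 genes lay between -0.11 and 0.096, and class medians between 0.83 and 1.5 for H1 (the midpoint of 2 genes, of which HIST1H1E was kept through the SMIP34 libraries, so that it describes no class), -0.40 and -0.23 for H2A, -0.13 and 0.14 for H2B, -0.30 and 0.0021 for genes of 1 short exon, and -0.053 and 0.15 for the other genes. Lower processing genes numbered 0 to 1, and interval genes 1 to 2 higher and 1 to 2 lower. Values ran from -0.117 to 0.582 for HIST1H4C, -0.444 to 0.0363 for HIST1H2AG and -0.271 to 0.0823 for HIST2H2BE, which was also above 0 at 0.0298 and 0.0767. The cause was not tested.

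With the replicate number as a block, 3 histone genes were higher and 2 lower, as without it, and the block changed no other count by over 1.5 times except that of the interval genes (1 higher). Deviations from the group means of libraries with the same number had correlations of -0.028, 0.0334 and -0.0111, and no pairing was assumed.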
